A study of Mus musculus with 6 samples.

Results

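JAK kinases, STAT transcription factors, a SOCS inhibitor and interferon signal genes were examined in newborn mouse epidermis. The set was fixed by name as 9 genes (Stat2, Stat3, Stat5b, Stat6, Jak1, Jak2, Socs3, Irf9 and Bst2). Of these, 8 were matched by Ensembl gene ID to the 12894 genes of the deposited table and all 8 passed the filter on low values. Bst2, which encodes the antiviral membrane protein tetherin, was not analysed here. Bulk RNA sequencing had been run on epidermis separated from dermis at postnatal day 0 in C57BL/6 mice, with 3 control and 3 Hnrnpu knockout libraries. Hnrnpu encodes a nuclear RNA-binding protein, and it was removed with loxP sites and Cre recombinase. The promoter that drove Cre is not given in the sources used here. The genotype label reads wild type for control 1 and Heterogenous for controls 2 and 3, and the other 3 animals are labelled as Hnrnpu knockouts. Nothing in the labels says that the libraries came from separate litters, and p-values measure the spread between these libraries only.

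Cytokines such as interleukin-6, leukemia inhibitory factor and the interferons bind paired receptor chains that carry JAK kinases. The kinases phosphorylate the receptor and then a STAT protein, which dimerizes, enters the nucleus and binds gamma-activated sites in DNA. Type I interferon acts through a complex with STAT2 and IRF9 that binds the interferon-stimulated response element. SOCS proteins are induced by STATs and shut the receptor and its kinases off again. In epidermis STAT3 is known for its part in wound healing and in keratinocyte growth, and STAT6 for the response to interleukins 4 and 13.

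The STAT genes moved apart. Stat3, the kinase gene Jak2 and the feedback inhibitor gene Socs3 were higher in the libraries labelled knockout, by 1.95-fold, 2.74-fold and 5.52-fold. Stat2 and Stat5b were lower, at 31.9% and 31.4% of the control level. Stat6, Irf9 and Jak1 did not pass the threshold. So 3 of 8 genes were called higher and 2 lower (limma, Benjamini-Hochberg adjusted p under 0.05 over all 12872 tested genes), where 17.7% of all tested genes were called higher and 15.9% lower. In either direction 33.6% of tested genes were called. Both falls were called whichever library was left out. The number of rises called was 1 without control 1, 0 without control 3 and 1 without knockout 2. Jak2 also lost its call without control 2 and without knockout 1. Over all tested genes, leaving out 1 library gave 1512 to 2342 called higher, beside 2279 in the main fit.

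**Figure D1:**
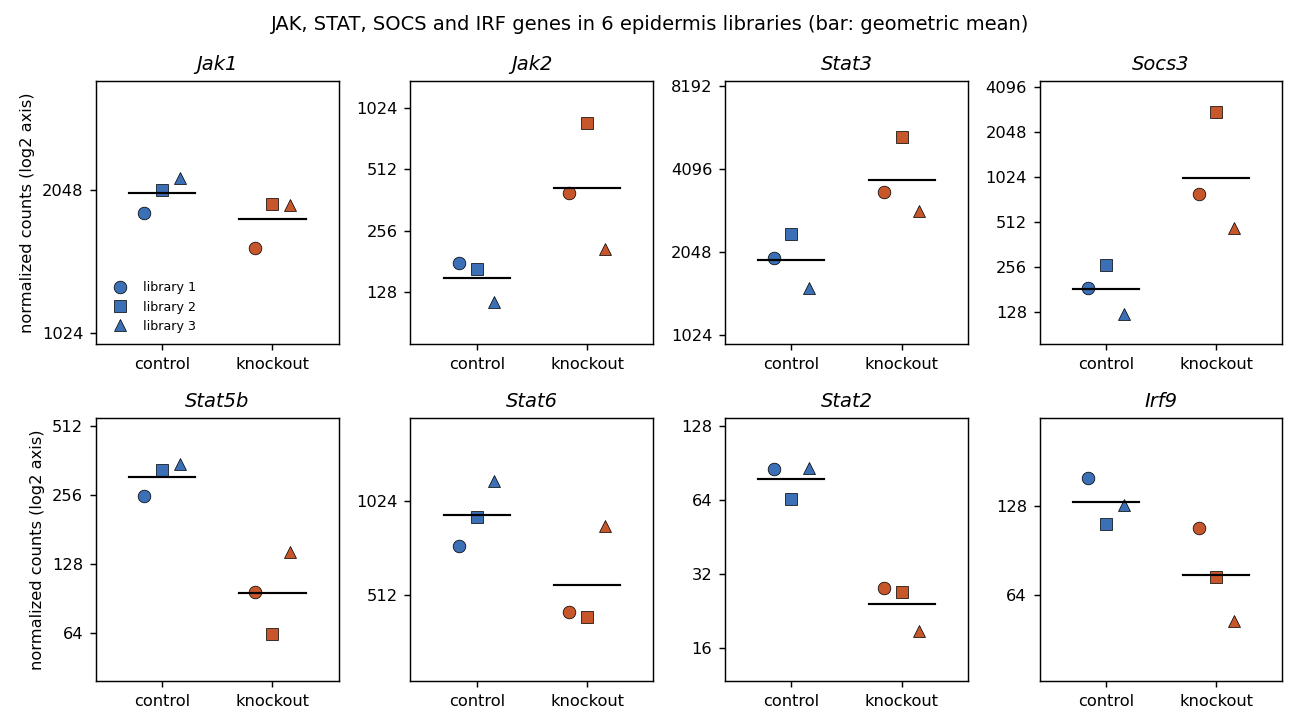
Normalized counts of the 8 genes in each library on a log2 axis, with controls in blue and libraries labelled knockout in orange, symbols for library number and bars at the geometric mean. All 3 knockout points of Jak2, Stat3 and Socs3 lie above the control points, and all 3 of Stat5b, Stat2 and Irf9 lie below them.

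Some facts of the whole series bear on these values. The estimated depth was 6453840 to 9112030 reads per library, and 1 read was worth 0.755 to 1.70 normalized counts. Hnrnpu itself had 1160 to 1450 normalized counts in controls and 1036 to 1565 in the libraries labelled knockout, so the gene count did not check the genotype, and all directions rest on the labels. Xist was above 1000 in knockout 2 and 3 only, so sex was not balanced. The keratinocyte genes Krt1 and Krt10 had 159412 or more normalized counts in every library, as the tissue label states. Marker genes of neutrophils (6 of 7 listed genes matched) summed to between 4.09 and 10.6 in control libraries. Their sums were 727, 8675 and 186 in knockout 1 to 3. S100a8 and S100a9, which stressed keratinocytes also express, made up most of these sums. Without them the sums were 4.09 to 10.6 in controls and 47.7, 837 and 34.4 in knockout 1 to 3. T cell markers (3 of 8 matched) summed to 175, 189 and 114 in control animals and to 79.4, 185 and 69.9 in knockout 1 to 3, which overlap. Of these 3, Cd3e was called lower and Ptprc and Thy1 were not called. Langerhans cell and macrophage markers (8 of 9 matched) summed to 286 to 556 in controls and to 207, 771 and 328 in knockout 1 to 3. Fibroblast markers (4 of 6 matched) summed to 391, 245 and 137 in control animals and to 516, 497 and 440 in knockout 1 to 3. Of the 4, 3 (the collagen genes Col1a1, Col1a2 and Col3a1) were called higher. The other, Dcn, measured 366, 160 and 87.5 in controls 1 to 3 and 215, 61.2 and 80.9 in knockout 1 to 3. Dcn differed by -0.75 ± 0.58 (log2; limma adjusted p = 0.341). The part of these cell types in the results was not tested. In such bulk libraries fewer cells of a type and less RNA per cell cannot be told apart.

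Jak1 encodes the kinase shared by the gp130, interferon and interleukin-4 receptors. It measured 1840, 2055 and 2180 normalized counts in control libraries 1 to 3 and 1551, 1916 and 1904 in those labelled knockout 1 to 3. The groups overlapped, and the log2 difference was -0.18 ± 0.17 (SE, n = 3 and 3; limma adjusted p = 0.428). The 95% interval of the knockout level ran from 67.5% to 115% of control.

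Jak2 encodes a kinase of gp130, growth hormone and interferon gamma receptors. It measured 177, 166 and 114 normalized counts in control libraries 1 to 3 and 391, 863 and 208 in those labelled knockout 1 to 3. Every knockout value lay above every control value, with knockout 3 close to the controls and knockout 2 far above them. Among all tested genes, 25.8% had all knockout values above the controls, and 50.8% had no overlap in either direction. Jak2 was higher by 1.45 ± 0.46 (log2; limma adjusted p = 0.0399). This call was lost without any single control or without knockout 1 or 2 (adjusted p from 0.0751 to 0.122), and the difference was 0.92 without knockout 2. Jak3, the kinase of common gamma chain receptors, rose from 10.6, 11.5 and 2.45 normalized counts to 29.9, 27.2 and 31.0 (log2 change 1.94 ± 0.60, limma adjusted p = 0.0374). Its call was lost when any of the 6 libraries was left out, and without control 3 the difference was 1.33. Tyk2, which serves interferon receptors, differed by -0.63 ± 0.39 (limma adjusted p = 0.235, or 0.0423 with adjacent animal numbers as a block).

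Per kilobase of exon, Jak1 was the most abundant JAK transcript in both groups. Its level was 413 ± 35.1 normalized counts per kilobase in controls (SD, n = 3) and 365 ± 42.2 in the libraries labelled knockout. Jak2 came next with 30.4 ± 6.69 and 96.9 ± 67.1. Tyk2 had 22.1 ± 8.39 and 14.3 ± 5.33, and its control values overlapped those of Jak2. Jak3 was lowest with 1.83 ± 1.12 and 6.58 ± 0.44. Jak2 made up 6.58% ± 1.83 of the summed JAK level per kilobase in controls and 19.2% ± 10.3 in the libraries labelled knockout.

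Stat3 encodes the main STAT of gp130 and interleukin-10 family receptors. It measured 1949, 2383 and 1524 normalized counts in control libraries 1 to 3 and 3388, 5327 and 2893 in those labelled knockout 1 to 3. The groups did not overlap, and knockout 2 was highest. Stat3 was higher by 0.96 ± 0.27 on the log2 scale, a fold of 1.95 (95% interval 1.28 to 2.96; limma adjusted p = 0.0251). Leaving out control 1, control 3 or knockout 2 removed the call (adjusted p = 0.0696, 0.0938 and 0.0509). It was also lost with equal library totals (0.0533) and with quantile normalization (0.102), where the difference was 0.52.

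Stat5b transmits growth hormone and interleukin-2 family signals. It measured 253, 329 and 349 normalized counts in control libraries 1 to 3 and 96.6, 62.9 and 145 in those labelled knockout 1 to 3. All knockout values lay below all control values, which 25.0% of tested genes also showed. Stat5b fell by 1.67 ± 0.31 (log2; limma adjusted p = 0.00513), to 31.4% of control with a 95% interval of 19.2 to 51.3%. Its close paralog Stat5a went from 348, 346 and 325 normalized counts to 147, 134 and 166 and fell by 1.19 ± 0.18 (limma adjusted p = 0.00225). The controls of Stat5a agreed closely and each knockout library had less than any of them. Sequence common to these paralogs may have moved reads from one to the other, which makes their separate levels uncertain.

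Stat5b, Stat5a and Stat3 are consecutive protein-coding genes on chromosome 11 in GENCODE M21 (GRCm38), with Ghdc and Cavin1 on either side. Falls of Stat5b and Stat5a and the rise of Stat3 were therefore found at the same locus. The flanking Ghdc rose by 0.78 ± 0.25 (log2; limma adjusted p = 0.0412) and Cavin1 differed by 0.01 ± 0.44 (adjusted p = 0.984). Exons of Stat5a and Stat3 overlap on opposite strands over 72 bases. The strand setting of the counting is not given in the sources used here, and reads in that overlap cannot be told apart.

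Stat6 encodes the STAT of the interleukin-4 receptor. It measured 731, 909 and 1185 normalized counts in control libraries 1 to 3 and 451, 432 and 853 in those labelled knockout 1 to 3. Knockout 3 lay within the control range, and the other two knockout libraries lay below it. The log2 difference was -0.75 ± 0.30 (limma adjusted p = 0.084). With adjacent animal numbers as a block, the adjusted p was 0.0099. It was 0.012 without knockout 3, 0.0366 with equal library totals and 0.0403 with quantile normalization, so its call depended on these choices.

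Stat2, the STAT specific to type I and type III interferon, was low in every library. It measured 86.1, 64.6 and 86.6 normalized counts in control libraries 1 to 3 and 28.0, 27.2 and 18.9 in those labelled knockout 1 to 3. The groups were well apart, and the lowest control had more than 2 times the highest knockout value. Stat2 fell by 1.65 ± 0.30 (log2; limma adjusted p = 0.00487), to 31.9% of control with a 95% interval of 19.8 to 51.4%. Leaving out any library gave falls between 1.47 and 1.79. The 250 bases before the start of Stat2 hold a match to the interferon-stimulated response element (GAAA, 2 bases of any kind and GAAA, searched on both strands), and they are shown because Stat2 is both a part of the factor that binds this element and a gene that fell. The sequence is from RefSeq (GRCm38.p6, chr10:128270248-128270497, plus strand), with the match in capitals. The match lies on the minus strand and begins 222 bases before the start.
Stat2 upstream: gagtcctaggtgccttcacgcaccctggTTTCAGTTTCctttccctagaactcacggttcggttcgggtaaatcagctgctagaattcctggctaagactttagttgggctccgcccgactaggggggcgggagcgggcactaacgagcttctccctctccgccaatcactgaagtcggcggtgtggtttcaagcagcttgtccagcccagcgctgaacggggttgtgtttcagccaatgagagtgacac

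Irf9 encodes the DNA-binding partner of STAT2. It measured 159, 111 and 129 normalized counts in control libraries 1 to 3 and 107, 73.2 and 52.1 in those labelled knockout 1 to 3. All knockout values lay below the controls, but knockout 1 and control 2 were nearly equal. The log2 difference was -0.82 ± 0.30 (limma adjusted p = 0.0679). With adjacent animal numbers as a block the adjusted p was 0.0249, and it was 0.0297 without knockout 1 and 0.0344 with equal library totals. Exons of Irf9 overlap those of Rnf31 on the same strand over 123 bases, and Rnf31 differed by 0.36 ± 0.21 (adjusted p = 0.209).

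Set side by side per kilobase of exon, the STAT genes changed their proportions. In controls Stat3 (313 ± 69.0 normalized counts per kilobase, SD, n = 3) and Stat6 (249 ± 60.6) overlapped in level. Stat5a (85.6 ± 3.27), Stat5b (56.0 ± 9.14) and Stat2 (18.0 ± 2.85) followed without overlap between neighbours. In the libraries labelled knockout Stat3 (621 ± 207) lay above Stat6 (153 ± 62.9) in every library. Stat5a (37.6 ± 3.96), Stat5b (18.3 ± 7.43) and Stat2 (5.62 ± 1.16) followed in the same order, again without overlap. Stat3 made up 43.3% ± 8.26 of the summed level of these 5 genes in controls and 73.2% ± 11.5 in the libraries labelled knockout. Stat2 made up 2.52% ± 0.57 and 0.68% ± 0.17. Stat4 was not analysed here, and lengths are from GENCODE M21, another build than the mm39 that the submitters name.

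**Figure D2:**
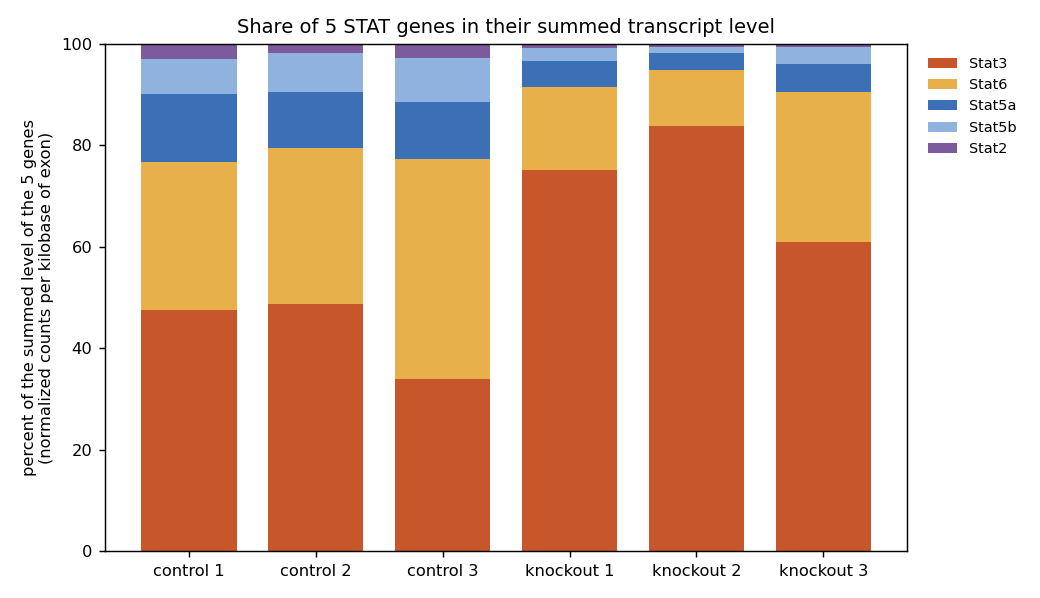
Share of each of 5 STAT genes in their summed level per library, in percent of normalized counts per kilobase of exon. Stat3 takes 33.8 to 48.8% of the bar in controls and 60.9 to 83.8% in the libraries labelled knockout, while the bands of Stat5a, Stat5b and Stat2 are narrower there.

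Socs3 encodes the inhibitor that binds gp130 and JAKs and is itself a STAT3 target. It measured 184, 265 and 125 normalized counts in control libraries 1 to 3 and 792, 2797 and 470 in those labelled knockout 1 to 3. Each knockout library lay above all controls, and knockout 2 had several times the level of the other two. Socs3 was higher by 2.47 ± 0.59 on the log2 scale, a fold of 5.52 (95% interval 2.19 to 13.9; limma adjusted p = 0.0141). Without knockout 2 the difference was 1.73 (adjusted p = 0.0128), and leaving out control 3 removed the call (adjusted p = 0.0518). The sequence before the Socs3 start holds a gamma-activated site match (TTCNNNGAA, which reads the same on both strands), and it is shown because Socs3 rose the most of the 8 genes. The sequence is from RefSeq (GRCm38.p6, chr11:117969367-117969616, minus strand), with the match in capitals, 154 bases before the start.
Socs3 upstream: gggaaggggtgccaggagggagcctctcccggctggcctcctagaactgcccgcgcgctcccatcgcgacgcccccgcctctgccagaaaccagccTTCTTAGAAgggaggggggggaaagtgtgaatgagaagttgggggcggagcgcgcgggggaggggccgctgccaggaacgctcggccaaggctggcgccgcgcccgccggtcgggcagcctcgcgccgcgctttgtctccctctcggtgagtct

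All 9 genes of the set had at least 1 start in the RefSeq promoter table, which gives 250 bases before to 50 after a start. The response element match was found for Stat2 and for Bst2, whose window holds GAAAATGAAA and GAAACTGAAA overlapping by 4 bases. Of 27025 genes with a window, 3.99% have such a match. The gamma-activated site match was found for Socs3 and Bst2, against 9.55% of these genes. A variant with 4 bases of any kind between TTC and GAA was found for Stat2 and Irf9, against 8.01% of all genes with a window. The windows of Stat3, Stat5b, Stat6, Jak1 and Jak2 hold none of these letters. Among tested genes with a response element match, 16.6% of 307 were higher and 16.3% lower. Among those without one, 17.6% of 8727 were higher and 16.6% lower, so the shares lay close together. For the gamma-activated site they were 17.0% and 16.8% of 731 genes with a match. These matches are descriptions of sequence and were not tested for binding.

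Stat3, Jak2 and Socs3 shared an order among the libraries labelled knockout, with knockout 2 highest and knockout 3 lowest. Other genes called higher, such as Hif1a, Il4ra and Clcf1, had this order too, while Socs5 and Vegfa did not. The share of all tested genes with this order was not counted, so it is not a trait particular to these genes. The summed neutrophil markers had the same order with S100a8 and S100a9 (8675, 727 and 186 normalized counts in knockout 2, 1 and 3) and without them, and their part in the results was not tested. Knockout 2 also had the lowest estimated depth and the largest normalized total, 1.10e+07 beside 8.19e+06 and 8.47e+06 in knockout 1 and 3. The part of depth and total in this order was not tested. Without knockout 2, the log2 differences were 0.71 for Stat3, 0.92 for Jak2 and 1.73 for Socs3. Stat5b had the reverse order, lowest in knockout 2. Stat2 and Irf9 were lowest in knockout 3 instead. Stat2 varied by an SD of 0.31 on the log2 scale among the libraries labelled knockout, and Socs3 by 1.32 and Jak2 by 1.02.

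By profile over the 6 libraries, the genes nearest to Stat3 were Pnrc1, Slu7 and Bok. Likeness was the root mean square difference of log2 values centred on the control mean, over 6127 named genes whose mean was at least 146 normalized counts. The differences were 0.07, 0.09 and 0.11. The genes nearest to Socs3 were Nudt4, Cnksr1 and Tubb6, at larger differences of 0.27, 0.28 and 0.29. Nudt4 measured 482, 588 and 387 normalized counts in control libraries 1 to 3 and 1677, 5293 and 1302 in those labelled knockout 1 to 3, so knockout 2 stood out there too.

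Ligands and receptors upstream of the JAKs were read from lists of pathway genes. Of 4 tested ligands of the gp130 and interleukin-10 families, 2 were higher and 0 lower, where 17.7% and 15.9% of all tested genes were. Clcf1, a gp130 ligand, rose from 1.51, 9.74 and 2.45 normalized counts to 75.7, 219 and 35.5 (log2 change 4.23 ± 0.78, limma adjusted p = 0.00489), by 3.55 without knockout 2 and by 4.85 without control 2. Lif, leukemia inhibitory factor, rose from 0, 6.20 and 4.90 to 15.0, 30.6 and 73.2 (3.26 ± 0.93, limma adjusted p = 0.0278). Leaving out control 1, knockout 2 or knockout 3 removed the Lif call (adjusted p = 0.0541, 0.0603 and 0.0936), and without control 1 the difference was 2.36. Osm, oncostatin M, which leukocytes make, had 296 normalized counts in knockout 2 and at most 13.3 in any other library (limma adjusted p = 0.122).

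Of 10 tested receptor chains of the same families, 4 were called lower, 0 higher and 6 not called. The share called lower was 40%, beside 15.9% of all tested genes, and the median log2 change was -0.55. Lifr, the receptor chain for Lif, measured 1635, 985 and 313 normalized counts in control libraries 1 to 3 and 145, 28.9 and 27.7 in those labelled knockout 1 to 3. It fell by 3.99 ± 0.74 (log2; limma adjusted p = 0.00498), and leaving out any 1 library gave log2 changes between -4.76 and -3.47. Il6ra, the interleukin-6 receptor, went from 1427, 1487 and 1121 to 673, 469 and 366 and fell by 1.45 ± 0.25 (adjusted p = 0.00345). Il22ra1, the interleukin-22 receptor, fell by 1.45 ± 0.26 (adjusted p = 0.0042). The fourth, Il20rb, fell by 2.74 ± 0.73 (adjusted p = 0.0218). Its call was lost without any single control or without knockout 1 (adjusted p from 0.0518 to 0.0629), and the log2 change was -1.83 without knockout 2 and -3.62 without knockout 3. The shared chain gp130 (Il6st) differed by -0.54 ± 0.28 (limma adjusted p = 0.166). It passed with equal library totals, with quantile normalization and without knockout 2 (adjusted p = 0.0223, 0.0134 and 0.049). Osmr, the oncostatin M receptor, differed by 2.29 ± 0.86 (limma adjusted p = 0.0703). Its adjusted p was 0.0165 with adjacent animal numbers as a block and 0.00499 without knockout 3, and the difference was 1.51 without knockout 2.

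**Figure D3:**
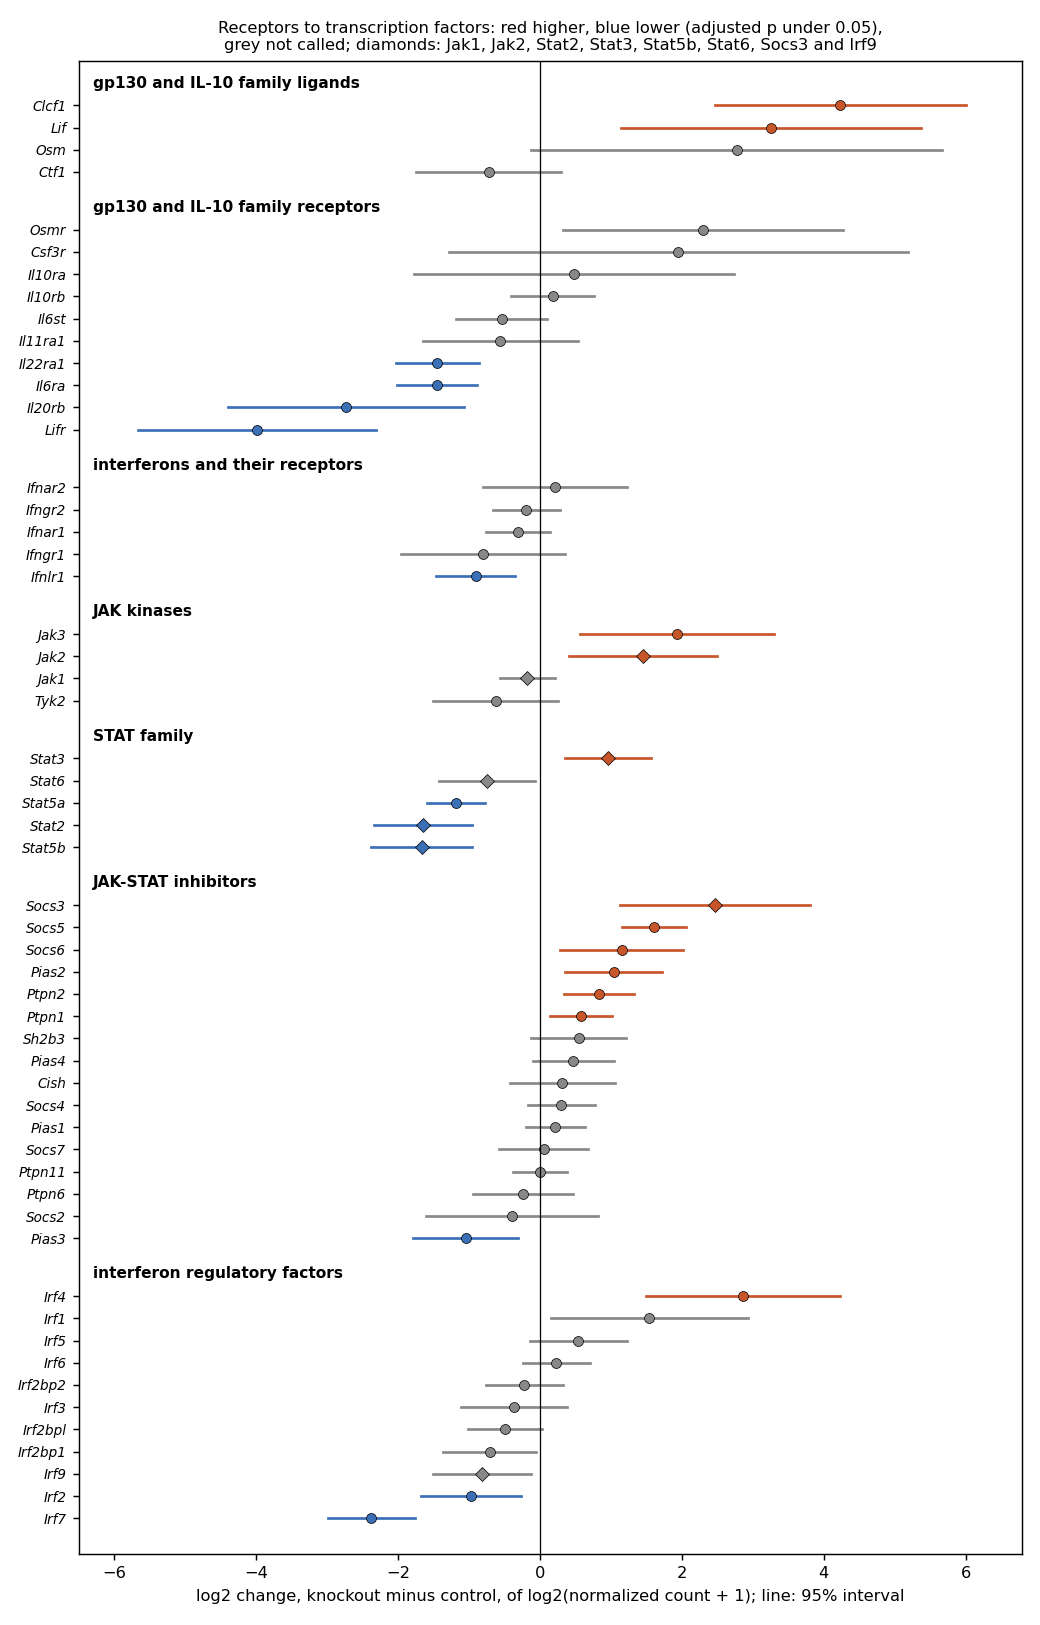
Log2 change with its 95% interval for the tested gp130 and interleukin-10 family ligands and receptors, interferon receptors, JAKs, 5 STATs, inhibitors and IRF list genes, red where called higher, blue where called lower and grey where not called. Ligands Clcf1 and Lif lie to the right and receptors Lifr, Il20rb, Il6ra and Il22ra1 to the left, and the STAT genes lie on both sides of 0.

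Among 6 receptor genes for interleukin-4, TSLP and the common gamma chain, 1 was higher and 1 lower, which is 16.7% each and near the background of 17.7% and 15.9%. Il4ra, the chain that signals to STAT6, rose from 205, 295 and 330 normalized counts to 1726, 3622 and 464. Its log2 change was 2.39 ± 0.63 (limma adjusted p = 0.021), or 1.72 and 3.20 without knockout 2 and 3. Leaving out control 1, control 2 or knockout 1 removed it (adjusted p = 0.0695, 0.0549 and 0.0596). Il15ra fell by 0.89 ± 0.26 (adjusted p = 0.0305). Leaving out any 1 control, or knockout 2 or 3, removed its call (adjusted p from 0.0513 to 0.117). Of 5 growth hormone and interleukin-3 family receptors, Il3ra rose by 2.22 ± 0.41 (limma adjusted p = 0.00486) and the growth hormone receptor Ghr fell by 0.78 ± 0.22 (adjusted p = 0.0257). The Ghr call held with all 6 libraries and without knockout 3, and was lost without each of the others (adjusted p from 0.0642 to 0.0942).

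Interferon receptor genes showed 1 fall among 5, a share of 20% beside 15.9% of all tested genes. Ifnlr1, the receptor chain for type III interferon, fell by 0.91 ± 0.24 (log2; limma adjusted p = 0.0227), and was called without control 3 or knockout 3 but not without each of the other 4 libraries (adjusted p from 0.053 to 0.091). The type I receptor chains Ifnar1 and Ifnar2 differed by -0.31 ± 0.20 and 0.21 ± 0.44 (limma adjusted p = 0.254 and 0.732). Ifnar1 passed with equal library totals (adjusted p = 0.0314), with a log2 difference of -0.65.

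Inhibitors of the pathway rose for 6 of 16 tested genes (37.5%, beside 17.7% of all tested genes), Socs3 included, and fell for 1 (6.25%, beside 15.9%), with a median log2 change of 0.39 against -0.02 over all tested genes. Socs5, a SOCS family member, went from 162, 175 and 226 normalized counts to 511, 619 and 584, a rise of 1.61 ± 0.20 (limma adjusted p = 8.57e-04). The phosphatase gene Ptpn2 and the PIAS gene Pias2 rose by 0.83 ± 0.22 and 1.04 ± 0.30 (adjusted p = 0.0203 and 0.0295). Leaving out any 1 control or knockout 2 removed the calls of Ptpn2 and Pias2, and leaving out knockout 1 also that of Pias2 (adjusted p from 0.05 to 0.0949). The number of inhibitors called higher fell to 2 on leaving out control 1, control 2 or knockout 2 and to 1 on leaving out control 3. It was 2 after scaling to equal totals and 3 in a fit that ignores the mean-variance trend. Calls over all tested genes moved too, with 1512 to 2342 higher on leaving out 1 library, beside 2279 in the main fit. With equal totals fewer of all tested genes were called higher as well. The count over all genes without the trend is not given here, so that number has no background beside it.

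Of 11 tested genes on the interferon regulatory factor list, 2 were called lower and 1 higher. These shares of 18.2% and 9.09% stand beside 15.9% and 17.7% of all tested genes, so the count of falls lay near the background. Irf7, the factor that amplifies type I interferon production, measured 125, 123 and 181 normalized counts in control libraries 1 to 3 and 25.2, 23.8 and 29.9 in those labelled knockout 1 to 3. It fell by 2.38 ± 0.27 (log2; limma adjusted p = 6.12e-04), and its call held in all 17 alternatives. Irf2 fell by 0.97 ± 0.31 (adjusted p = 0.0411), a call lost without control 1, control 3, knockout 1 or knockout 2 (adjusted p from 0.0641 to 0.14). Irf4, a factor of lymphocytes and melanocytes, rose from 6.04, 3.54 and 2.45 normalized counts to 37.4, 54.4 and 18.9 (2.86 ± 0.60, limma adjusted p = 0.00844). Summed melanocyte markers (6 of 6 matched) lay between 387 and 535 in controls and between 2748 and 4449 in the libraries labelled knockout, and their part in the Irf4 result was not tested. With adjacent animal numbers as a block, 4 factors were lower and 2 higher, and with equal library totals 4 were lower. The shares of all tested genes called lower under these settings are not given here, so these counts have no background beside them.

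Sensors of foreign or misplaced nucleic acid were called lower for 2 of 13 genes and higher for 0. The share called lower, 15.4%, lay near the 15.9% of all tested genes, and the median log2 change of the list was 0.21. Cgas, the sensor of cytosolic DNA, went from 74.0, 31.9 and 51.5 normalized counts to 0.93, 11.9 and 12.2 and fell by 2.87 ± 0.78 (limma adjusted p = 0.0233). Leaving out control 1 or 3 removed the Cgas call (adjusted p = 0.0865 and 0.0718), and the log2 change was -1.95 without knockout 1. Mavs, the adaptor of RNA sensors, fell by 2.0 ± 0.61 (adjusted p = 0.0352), a call lost without each library other than knockout 3 (adjusted p from 0.066 to 0.12). The log2 change of Mavs was -2.70 without knockout 3 and -1.43 without knockout 2.

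Calls among interferon-stimulated genes went both ways, at shares near or below those of all tested genes. Of 55 listed type I genes, 22 were tested and 4 were higher and 3 lower, shares of 18.2% and 13.6% beside 17.7% and 15.9% of all tested genes, with a median log2 change of 0.00. Parp10, an ADP-ribosyltransferase, fell by 2.17 ± 0.29 (limma adjusted p = 0.00125). Helz2, a helicase and nuclear coactivator, rose by 1.55 ± 0.30, and Ifitm2, a membrane protein that restricts virus entry, rose by 1.06 ± 0.24 (adjusted p = 0.00583 and 0.0116). Reads of Ifitm2 may be shared with related Ifitm genes. The other 33 listed genes, among them the Ifit, Oas and Mx families and Isg15, were not analysed here. Leaving out control 1 or control 3 left 1 called lower. Of 15 tested genes of interferon gamma response and antigen presentation, 2 were higher and 1 lower. Both shares, 13.3% and 6.67%, lay below the 17.7% and 15.9% of all tested genes. Cd274, the ligand of the T cell checkpoint receptor, rose from 4.53, 7.08 and 8.99 normalized counts to 28.0, 164 and 43.2 (2.96 ± 0.66, limma adjusted p = 0.0106), by 2.23 without knockout 2. Tapbp, which loads peptides on class I molecules, fell by 0.81 ± 0.17 (adjusted p = 0.00944). The chemokine gene Cxcl16 rose by 0.67 ± 0.23 (adjusted p = 0.0498), a call lost without each library in turn (adjusted p from 0.0623 to 0.167). With adjacent animal numbers as a block, 5 genes of this list were higher, but the share of all tested genes called with that block is not given here.

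Genes known as STAT3 targets rose for 9 of 16 tested, Socs3 included, and fell for 0, with a median log2 change of 1.2, beside a median of -0.02 and 17.7% called higher over all tested genes. Hif1a, the oxygen-regulated transcription factor, went from 895, 1399 and 1022 normalized counts to 5013, 8851 and 3647, a rise of 2.33 ± 0.32 (limma adjusted p = 0.00147). The angiogenic factor gene Vegfa rose by 1.84 ± 0.32 (adjusted p = 0.00391). The chemokine gene Ccl20 rose by 3.94 ± 0.80 (adjusted p = 0.00738), or by 2.97 and 4.59 without controls 1 and 3. Most of these genes are also targets of other factors. STAT5 and STAT6 targets were higher for 1 of 9 (11.1%, beside 17.7% of all tested genes) and lower for 0. That gene was Ccnd1, cyclin D1, with a rise of 1.36 ± 0.37 (limma adjusted p = 0.0249), and its call was lost without control 2, control 3, knockout 1 or knockout 2 (adjusted p from 0.0616 to 0.0847).

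**Figure D4:**
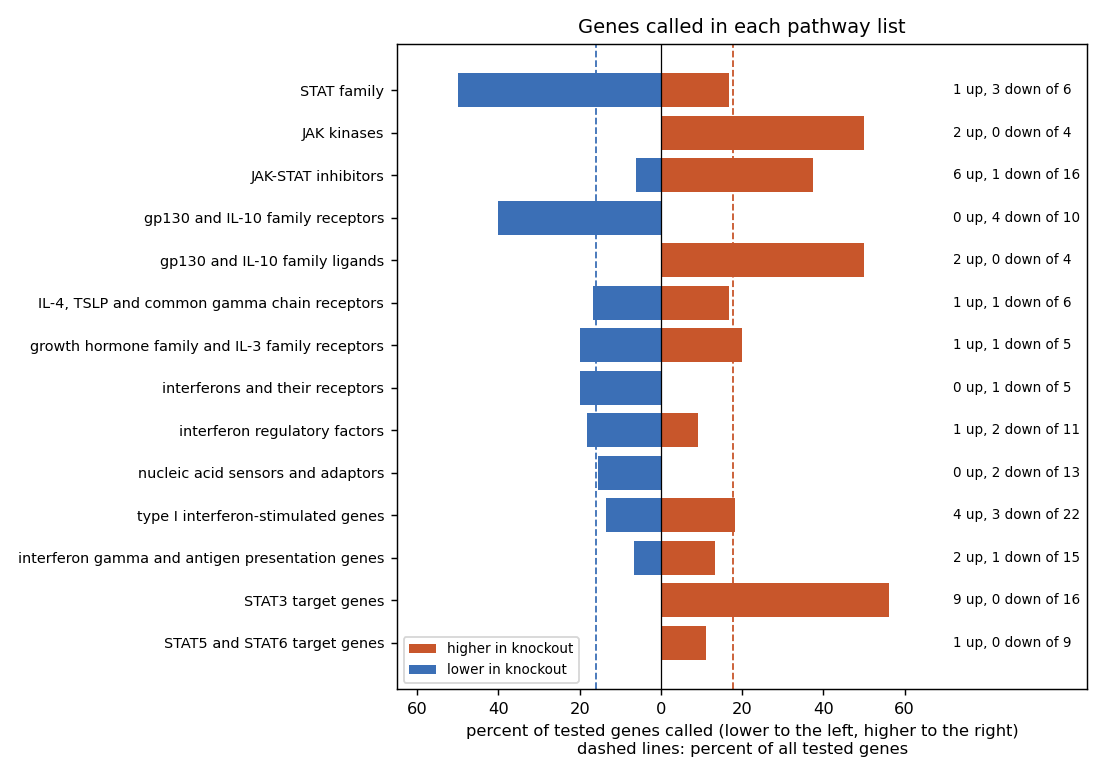
Percent of tested genes in each pathway list that were called higher (orange, right) or lower (blue, left), with dashed lines at the 17.7% and 15.9% of all tested genes. The STAT3 target list extends to 56.2% on the right and the gp130 receptor list to 40% on the left.

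Over all pathway lists without the 8 genes above, 26 of 130 tested genes were higher and 17 lower. These shares of 20% and 13.1% lay near the 17.7% and 15.9% of all tested genes, and the median log2 change was 0.22. Leaving out control 1, 2 or 3 gave 14, 14 and 16 higher and 7, 10 and 8 lower, and leaving out knockout 2 gave 14 higher. Scaling to equal totals gave 15 higher, and under it the median change of all genes was -0.36 where it had been -0.02.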

How the data were processed

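The authors deposited a table of 12894 Ensembl genes in 6 libraries whose signal, a normalized count, is never negative. The submitters' processing notes name Partek 9.0.20.0202, TopHat2 2.1.0 and the mm39 build. What each did, how values were normalized and how reads were counted and assigned to strands is not given in the sources used here. Of low values, 81.1 to 83.6% were whole multiples of 1 step per library within 0.02 of a step, too few to recover reads, and count models were therefore not run. Symbols matched for 12771 IDs. Genes above 1 in at least 3 libraries were tested (12872) as log2(value + 1) by limma 3.58.1 in R 4.3.3 with a mean-variance trend, so fold changes understate those of low genes. P-values are two-sided and Benjamini-Hochberg adjusted at 0.05, errors are moderated SE and intervals are at 95%. The fit was tested on simulated data.

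The genes and lists were chosen with earlier results of these data known. Named from each pathway list were up to 3 genes with the smallest adjusted p. Tyk2, Il6st, Osmr, Osm, Il20rb, Ifnar1, Ifnar2, Cd3e, Ptprc, Thy1, Col1a1, Col1a2, Col3a1, Dcn, Krt1, Krt10 and genes beside the STAT locus and Irf9 were named after their values were seen. Nearest profiles were sought for Stat3 and Socs3. Adjacent animal numbers in the titles (216 with 217, 241 with 242, 250 with 251) were taken to pair libraries, and no litter is stated. Deviations from group means correlated by 0.37, 0.23 and 0.36 in these pairs. Correlations of other pairings are not given here, so these values do not show that the pairing is real. The result of 1 listed gene is not reported here. Alternatives were other pseudocounts, filters, scalings and variance models, the replicate block, a term for high Xist and each library left out.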

Additional observations from a re-analysis of the deposited data

How the results depend on the processing

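Stat2 and Stat5b kept their calls in 16 of 17 alternatives each, and every alternative kept the sign of all 8 genes. The exception was a term for libraries with Xist above 1000, which leaves the group difference to knockout 1 against the controls: Stat2 changed by -1.45, Stat5b by -1.66, Stat3 by 0.82, Jak2 by 1.37 and Socs3 by 2.11, with 0 of 8 genes called higher, 0 lower, 6 and 5 other pathway genes higher and lower, and 713 and 576 of all genes. With equal library totals Stat3 changed by 0.62 and Jak2 by 1.11, no longer called, and Stat6 by -1.09, Jak1 by -0.52 and Irf9 by -1.15, now called. Then 1 of the 8 was higher and 5 lower, 15 other pathway genes were higher, and 1440 of all genes were higher. Under this scaling the median log2 change of all genes was -0.36, where it was -0.02 in the main fit. This scaling multiplies each library by 1 factor. By construction the shift toward falls ran through all genes, and it was not particular to these 8. With quantile normalization Stat3 changed by 0.52 and was not called, and Stat6 by -0.92 and Jak1 by -0.54 were, giving 4 lower. Without the trend Stat3 (0.96) and Jak2 (1.45) missed the threshold, leaving 1 higher. With the replicate block of adjacent animal numbers Stat6 (-0.75) and Irf9 (-0.82) passed, giving 4 of the 8 lower, and no other call among the 8 changed. The shares of all genes called with quantile normalization and with this block are not given here. Leaving out 1 library gave 0.71 to 1.15 for Stat3, 0.92 to 1.94 for Jak2, 1.73 to 3.02 for Socs3, -1.06 to -0.57 for Stat6 and -1.08 to -0.56 for Irf9. It gave 0 to 3 of the 8 higher and 2 to 3 lower, 14 to 28 other pathway genes higher and 7 to 16 lower, and 1512 to 2342 of all genes higher and 1121 to 2167 lower. The causes were not tested. With 3 libraries a group and 1 read worth up to an estimated 1.70 normalized counts, small changes of low genes such as Jak3, Lif and Irf4 were not detectable.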
